A study of Mus musculus with 18 samples.

Results

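Control interneurons were followed over their whole sampled window, from E14.5 (embryonic), while the cells migrate tangentially, to P2 (postnatal), when they settle in the cortex. The comparison set the 3 P2 control arrays against the 3 E14.5 control arrays, chosen by their titles, which are 6 of the 18 arrays in the series. Control animals carried GAD65-GFP, a transgene that puts GFP under GAD65 control, and no other allele is named for them. The Htr3a-KO animals set beside them carried the same transgene and lacked Htr3a, with 3 arrays at each age. Cells born in the caudal ganglionic eminence (CGE) were isolated by their fluorescence, per the design text, and the cells behind an array were a pool of 4 or more brains from 1 litter. The 3 arrays of a group came from different litters. A further 3 control arrays at E18.5, when the cells enter the cortical plate, gave the midpoint. The sort selects fluorescence, so any other fluorescent or carried-over cell would be in the pool.

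Cortical interneurons are born in the ganglionic eminences below the cortex and reach it by tangential migration. Those from the CGE become cells that express VIP, cholecystokinin or reelin and lie mostly in superficial layers, and most of them carry the serotonin receptor channel subunit encoded by Htr3a. The neighbouring lateral eminence makes striatal projection neurons, which are also GABAergic, and the medial eminence (MGE) makes somatostatin and parvalbumin interneurons. Between mid-gestation and birth such neurons stop migrating, acquire ion channels and receptors and begin to form synapses, and in the same period glial cells appear in the surrounding tissue.

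Values were log2 intensities, so a difference of 1 is 2-fold. Array medians lay between 6.35 and 6.46. Over all probe sets the correlation of 2 arrays was 0.989 to 0.994 within E14.5 controls, 0.984 to 0.989 within P2 controls and 0.957 to 0.965 between these ages. Of the 6 arrays, E14.5 array 3 and P2 array 1 stood apart from their groups in cell type markers. The actin control difference between 3' and 5' probe sets was 0.57 to 0.76 at E14.5 and 0.9 to 1.22 at P2, so these ranges did not overlap, while those of Gapdh, which overlapped, were 1.63 to 1.99 and 1.77 to 2.2. The part of RNA quality in the results was not tested.

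Over the whole window, 5601 of 14292 genes passed (39.2%), 2577 higher at P2 (18%) and 3024 lower (21.2%). Passing here means an adjusted p under 0.05 in limma, with Benjamini-Hochberg adjustment over all genes tested. The rises were the larger changes, since 1123 genes rose by 2-fold or more (7.86%) and 438 fell by as much (3.06%). Arrays of the 2 ages did not overlap for 48.5% of genes, which is the background for each statement below that groups did not overlap. The median difference over all genes was -0.04. Genes were tested where their mean over all 18 arrays was above 5.255, the level that leaves out the lowest 30% of probe sets, so a gene high at 1 age alone could be tested, and counts over a list describe its measured members only. Among the passing genes, 133 rises started from an E14.5 mean below this level, and 46 falls ended below it, so their folds rest on a low value near background.

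Genes of glia and of the thyroid hormone pathway led the rises. Aqp4, the water channel of astrocyte endfeet, read 3.64, 3.29 and 4.22 in the E14.5 arrays and 9.78, 11.11 and 11.02 in the P2 arrays, a difference of 6.92 (SE 0.46, adjusted p = 6.66e-08). Olig1, a transcription factor of the oligodendrocyte lineage, read 7.28, 7.21 and 7.25 and then 13.17, 13.37 and 13.15, a 63.3-fold rise (adjusted p = 4.82e-09). All 3 E14.5 values of Aqp4 lay below the filter level, so its difference is taken against background. These leading genes were chosen among those whose arrays do not overlap, so their separation is no finding. Car8, which encodes a carbonic anhydrase related protein, rose by 5.95 and Timp4, a metalloprotease inhibitor, by 5.40, both from E14.5 means below the filter level. Further large rises were Htra1, a secreted protease, at 4.94, Tnc, the matrix protein tenascin C, at 4.89, and Bcan, the proteoglycan brevican, at 4.86. Tril and Nwd2 rose by 4.80 and 4.56.

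Transcription factors of striatal and of cortical excitatory precursors led the falls. Isl1, a factor of striatal neurons, read 11.97, 12.25 and 8.95 at E14.5 and 5.03, 4.94 and 4.84 at P2, a difference of -6.12 (SE 0.87, adjusted p = 6.37e-05). E14.5 array 3 was over 3 log2 units below the others. Eomes, the factor of intermediate progenitors of cortical excitatory neurons, read 11.15, 11.15 and 11.86 and then 6.81, 7.23 and 6.54, a 23.0-fold fall (adjusted p = 1.11e-06). Other large falls were Nhlh1 (-3.88), Tfap2c (-3.79) and Tfap2d (-3.67), all transcription factors. The P2 means of Nhlh1 and Tfap2d were below the filter level. Shisa2, Trim17, Zfhx4, Rasgef1b and Rspo3 fell by 3.11, 2.90, 2.86, 2.74 and 2.63.

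**Figure D1:**
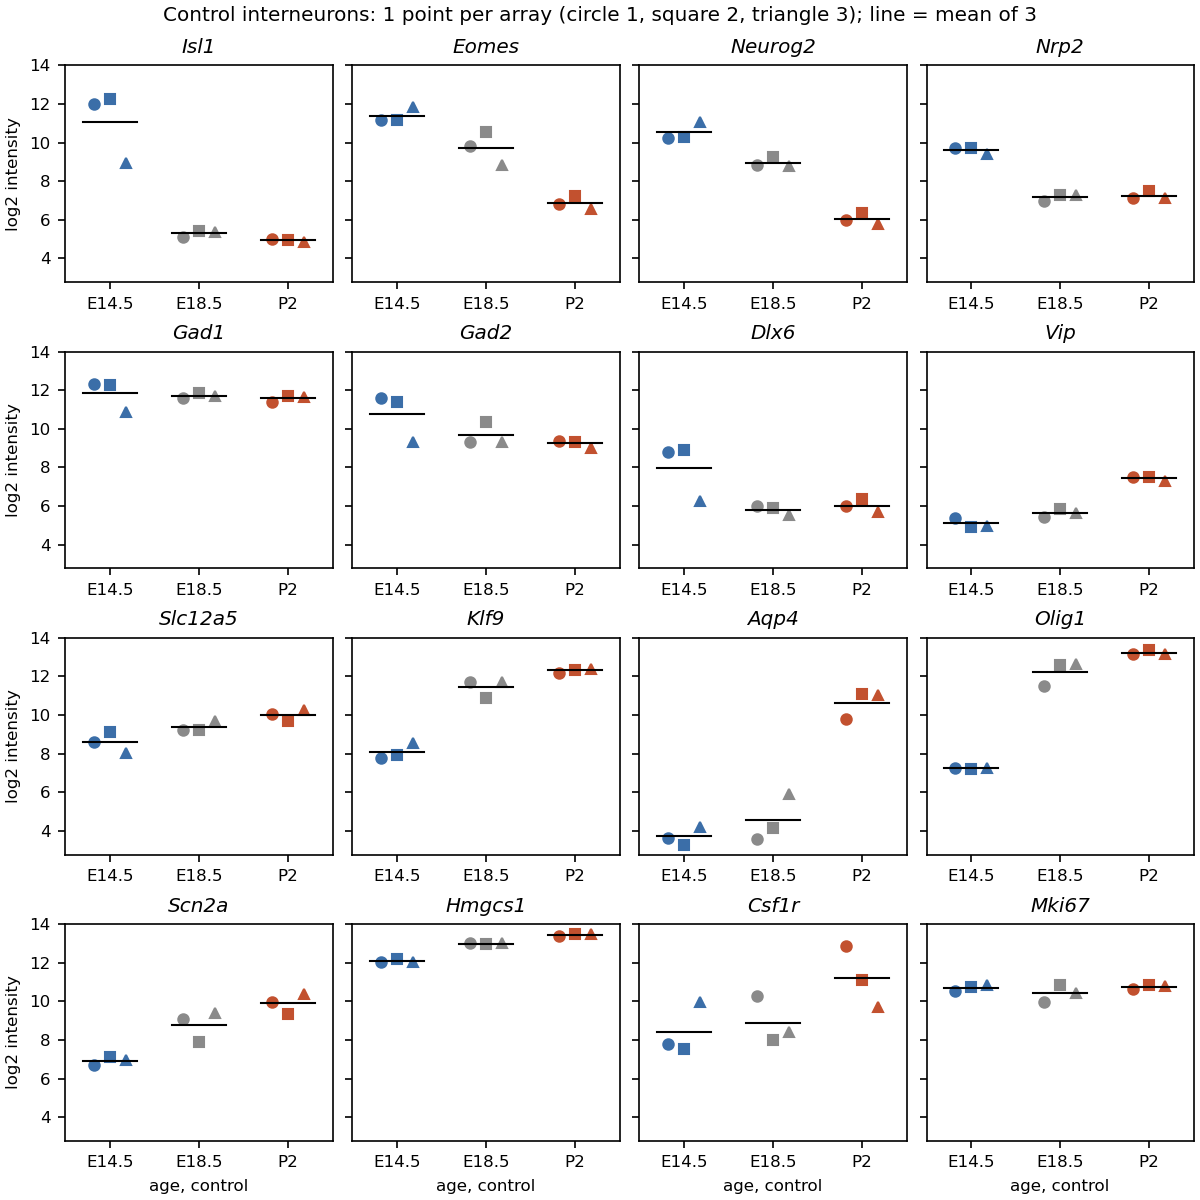
Log2 intensity of 16 genes in the 9 control arrays, by age; each point is 1 array (circle 1, square 2, triangle 3) and the line is the mean of 3. Isl1, Eomes, Neurog2 and Nrp2 fell and Klf9, Aqp4 and Olig1 rose from E14.5 to P2, while Gad1, Gad2, Dlx6 and Isl1 show E14.5 array 3 below the other E14.5 arrays.

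Genes were grouped in 38 lists by role, and the share of members that passed is read against 18% higher and 21.2% lower over all genes. Members of a list were named mainly by the smallest p of this same comparison. That choice favours arrays that are apart between ages and close within them, so such remarks on named members are descriptions and no finding. Astrocyte, oligodendrocyte lineage, immediate early, cholesterol, thyroid hormone and potassium channel lists held the highest shares of risers. Striatal and excitatory neuron lists held the highest shares of fallers. Ribosomal and respiratory chain lists had few members past the threshold in either direction. Leaving out 1 array at a time moved some small counts by over 1.5 times, to 1 to 6 ribosomal fallers, 0 to 4 respiratory chain risers and 3 to 5 fallers, 1 to 4 meningeal risers, 1 to 4 Eph risers, 2 to 5 chromatin risers, 3 to 4 progenitor fallers, 0 to 2 fallers each among potassium channel, glutamate receptor and GABA signalling genes, and 1 to 2 erythroid fallers.

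**Figure D2:**
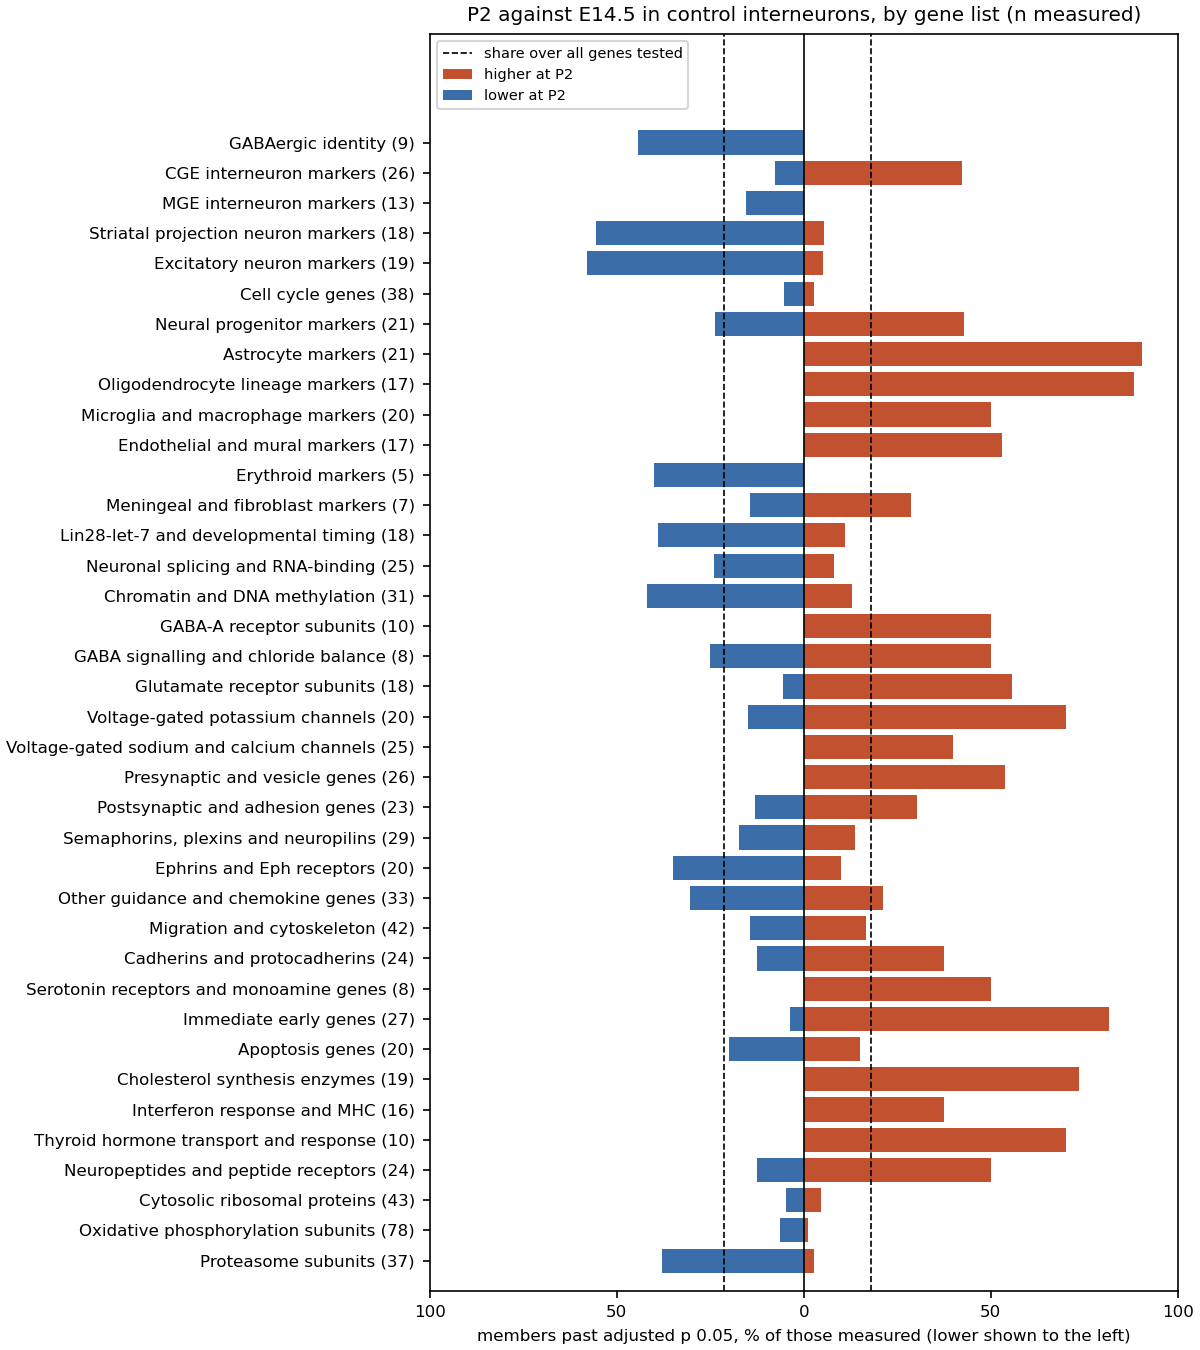
Share of measured members of each of 38 gene lists that passed adjusted p 0.05 at P2 against E14.5 in controls, higher to the right and lower to the left, with the number measured in brackets; dashed lines mark 18% and 21.2%, the shares over all genes. Glial, immediate early and cholesterol lists extend far to the right, and striatal and excitatory lists to the left.

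Gad1, the main GABA-making enzyme, was far above the filter level at both ages. It read 12.34, 12.29 and 10.88 at E14.5 and 11.38, 11.72 and 11.63 at P2. Gad1 did not pass (-0.26, SE 0.30, adjusted p = 0.528), although without E14.5 array 3 the fall passed. Gad2, which encodes GAD65, read 11.57, 11.38 and 9.34 and then 9.35, 9.33 and 9.03, a fall of 2.88-fold (adjusted p = 0.0117). Its E14.5 array 3 lay within the P2 range, and the call was lost when E14.5 array 1 or 2 was left out. Of 9 measured GABAergic identity genes (11 listed) 0 rose and 4 fell, with a median of -1.0. Dlx5, a homeobox factor of the ventral forebrain, fell by 1.45 (adjusted p = 0.00497), and its E14.5 arrays read 10.08, 9.86 and 8.32. Dlx6 fell by 1.96 and the vesicular GABA transporter Slc32a1 by 1.0, the latter lost without E14.5 array 1 or 2 or P2 array 3. With both apart arrays left out, 7 of these 9 genes fell and the median was -1.20. Leaving out 1 array at a time gave 2 to 7 that fell.

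The mean level of the GABAergic list in each array shows the same array apart. It was 10.62, 10.51 and 8.94 at E14.5 and 9.06, 9.40 and 9.05 at P2. In the same E14.5 arrays the striatal list averaged 9.33, 9.75 and 8.29 and the microglia list 6.28, 6.23 and 7.43. E14.5 array 3 was thus lowest of its group in GABAergic and striatal genes and highest in microglial ones. It was also highest of its group in the excitatory (9.52, 9.53 and 9.93), progenitor (8.98, 9.03 and 9.54), astrocyte (7.65, 7.76 and 8.23), cell cycle and endothelial lists. In the CGE, MGE and oligodendrocyte lists it was lowest by a smaller margin. In pooled sorted cells, fewer cells of a type and less RNA per cell cannot be told apart, here or in any list that follows.

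**Figure D3:**
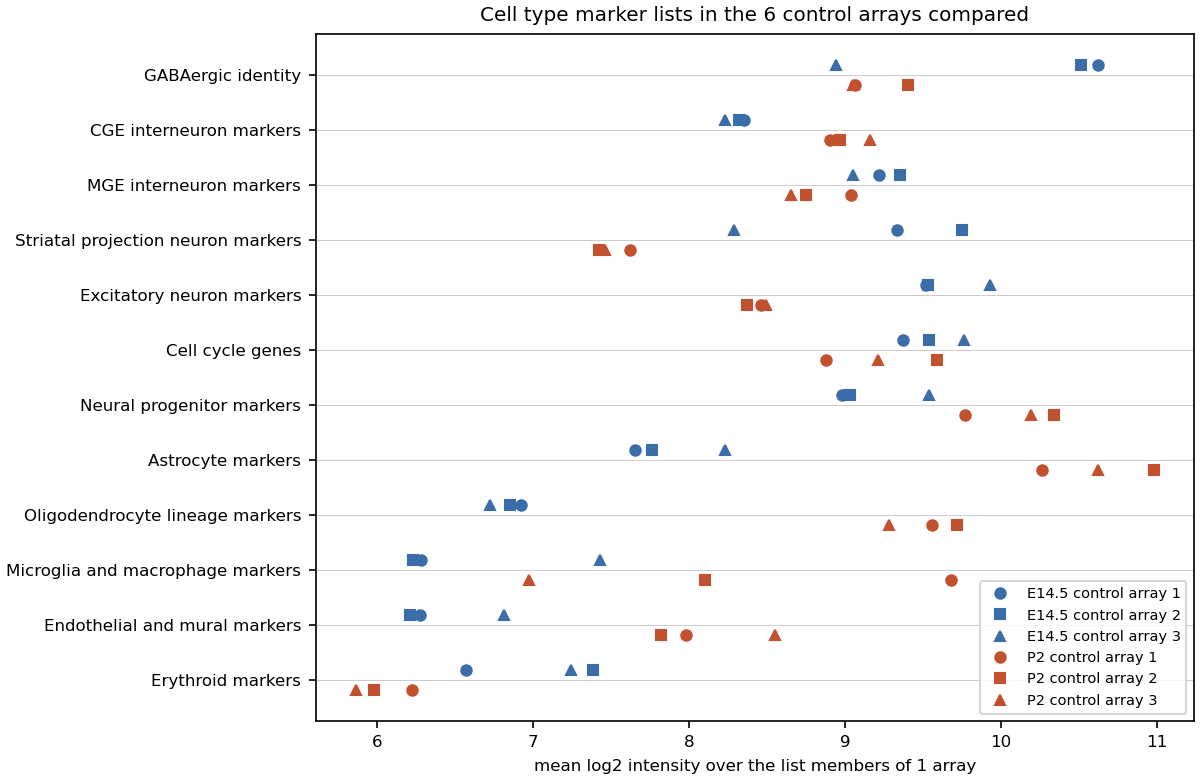
Mean log2 intensity of 12 cell type marker lists in each of the 6 control arrays compared, E14.5 in blue and P2 in red, with symbols for arrays 1 to 3. The ages overlap for GABAergic, cell cycle and microglia lists and separate fully for every other list shown, only just for MGE genes (9.05 at E14.5 against 9.04 at P2). E14.5 array 3 is lowest of its group for GABAergic (8.94) and striatal (8.29) genes, and P2 array 1 is highest for microglia (9.68).

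Of 18 measured striatal projection neuron genes (21 listed) 10 fell and 1 rose, with a median of -1.23. The P2 means of Isl1, Ebf1 and Crabp1 lay below the filter level, so the sizes of their falls are taken against background. Ebf1, a factor of the direct striatal pathway, read 10.05, 10.59 and 7.55 and then 4.61, 4.39 and 4.80, a 27.8-fold fall (adjusted p = 3.37e-05). Zfp503 fell 12.1-fold, Zfhx3 9.67-fold and Six3 4.51-fold, and Crabp1, a retinoic acid binding protein, 7.16-fold (adjusted p = 6.34e-06). Rarb, the striatal retinoic acid receptor, read 9.42, 10.39 and 6.19 at E14.5 and 6.04, 5.66 and 5.80 at P2, a fall of 2.83 (adjusted p = 0.00507). In 2 of 3 E14.5 arrays it was far above P2, and in array 3 only just above. Bcl11b, which striatal and deep layer cortical neurons both express, fell 2.68-fold from 12.94 ± 0.06 to 11.52 ± 0.32 (SD, n = 3). Gsx1, a progenitor factor of the eminences, was the member that rose (1.66-fold). Foxp1, Meis2 and Drd1 did not pass.

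Of 19 measured genes of excitatory neurons and their precursors (21 listed) 11 fell and 1 rose, with a median of -0.88. With both apart arrays left out, 7 fell and the median was -1.10. Neurog2, the proneural factor of cortical progenitors, read 10.24, 10.28 and 11.04 and then 5.97, 6.33 and 5.78, a 22.5-fold fall (adjusted p = 8.94e-08). Neurod1, which follows it in newborn neurons, fell 7.71-fold and Sstr2, a somatostatin receptor of migrating cortical neurons, 5.90-fold (adjusted p = 3.72e-08). Markers of later excitatory neurons fell less. Neurod6 read 12.12, 11.97 and 12.38 at E14.5 and 10.12, 10.50 and 11.33 at P2, a 2.84-fold fall (adjusted p = 0.00493), and Tbr1 fell 2.76-fold. Neurod6 was therefore still far above background in every P2 array, and its call was lost with both apart arrays left out (adjusted p = 0.0718). Slc17a6, a vesicular glutamate transporter, fell by 1.32, while Slc17a7, the other one, read 5.04 to 5.79 over the 6 arrays. Rorb, a layer 4 factor also found in interneurons, rose 2.86-fold.

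Among 26 measured CGE interneuron genes (29 listed), 11 rose and 2 fell, with a median of 0.63. Vip, the peptide of a bipolar CGE class, read 5.39, 4.94 and 4.97 at E14.5 and 7.50, 7.52 and 7.28 at P2, a 5.04-fold rise (adjusted p = 9.63e-05) from a mean of 5.10 below the filter level. Cck, the peptide of basket cells, rose 4.11-fold, Ndnf, a gene of neurogliaform cells, 3.66-fold and Adarb2, an RNA editing family member of CGE cells, 2.99-fold. The 3 P2 arrays of each of these 4 genes lay above the 3 E14.5 arrays, which naming members by small p favours. Egfr, which was on this list and which glial precursors also express, rose 32.8-fold. Reln, the secreted glycoprotein of superficial interneurons, read 10.92, 11.25 and 12.01 and then 12.66, 12.14 and 12.55, a 2.08-fold rise (adjusted p = 0.00729). Npy rose 1.99-fold (adjusted p = 0.0193), lost without E14.5 array 3 or P2 array 3. The fallers were Nr2f1, an orphan nuclear receptor of the caudal forebrain (-0.88, adjusted p = 0.000785), and Penk (-1.04).

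Of the transcription factors of CGE cells, Prox1, Nr2f2 and Sp8 did not pass. Prox1 read 6.86, 5.26 and 4.74 at E14.5 and 6.27, 6.37 and 6.72 at P2 (adjusted p = 0.108), and the rise passed without E14.5 array 1. Nr2f2 averaged 9.75 ± 0.80 and 9.09 ± 0.35 (SD, n = 3), and its fall passed without E14.5 array 3. Sp8 averaged 8.51 ± 0.72 and 8.68 ± 0.48. Htr3a rose 1.67-fold over the window (SE 0.26, adjusted p = 0.0322), with no overlap between E14.5 and P2. This net call was lost without E14.5 array 2 or 3, without P2 array 3 and with both apart arrays left out (adjusted p = 0.133), and was reached from an E18.5 mean of 10.34 that was above both ends.

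Of 13 measured MGE interneuron genes (19 listed), 0 rose and 2 fell. Ackr3, the scavenging chemokine receptor of migrating interneurons, read 10.75, 10.88 and 10.77 and then 9.34, 8.93 and 8.34, a 3.81-fold fall (adjusted p = 1.37e-05). Sst, the peptide of an MGE class, fell 2.85-fold from 10.04 ± 0.23 to 8.53 ± 0.41 (adjusted p = 0.000251). Lhx6, the factor of postmitotic MGE interneurons, read 9.43, 9.74 and 9.63 and then 9.86, 8.57 and 8.44, which did not pass (adjusted p = 0.140) and did so without P2 array 1. Nkx2-1, the MGE progenitor factor, read close to background at both ages, at 6.07 and 5.93. MGE genes were thus measured in cells labelled as CGE-derived at both ages.

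Of the 24 neuropeptide and peptide receptor genes measured (28 listed), 12 rose and 3 fell. With both apart arrays left out, 7 rose and 4 fell. Sstr4 rose 3.58-fold and the PACAP receptor Adcyap1r1 2.64-fold, in contrast to Sstr2, which fell. Crh, the stress peptide that some VIP cells make, read 6.21, 6.03 and 7.39 at E14.5 and 8.18, 8.14 and 8.53 at P2, a 3.34-fold rise (adjusted p = 0.00075). At E18.5 its mean was 4.60, below both ends.

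Astrocyte genes rose almost throughout, with 19 of 21 measured members (23 listed) higher, 0 lower and a median of 2.36. The list mean was 7.65 to 8.23 over the E14.5 arrays and 10.26 to 10.98 over the P2 arrays. Aldh1l1, a folate enzyme of astrocytes, read 5.52, 5.98 and 6.19 and then 10.45, 11.16 and 10.60, a 28.6-fold rise (adjusted p = 7.20e-08). The glutamate transporters Slc1a3 and Slc1a2 rose 13.8-fold and 10.8-fold, and the gap junction gene Gja1 10.4-fold. Apoe, the lipid carrier of astrocytes and microglia, rose 30.2-fold from 6.82, 6.54 and 8.40 to 12.17, 12.44 and 11.90. Gfap rose less, 2.20-fold, and lost its call without E14.5 array 3 or P2 array 2. Sox9 and S100b did not pass (adjusted p = 0.137 and 0.311).

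Oligodendrocyte lineage genes rose in 15 of 17 measured members (22 listed), 0 fell, and the median was 2.82. Genes of early precursors led. Pdgfra, the growth factor receptor of these precursors, read 6.97, 7.06 and 6.80 and then 12.36, 12.42 and 12.52, a 44.9-fold rise (adjusted p = 6.75e-09). Its values were close together within each age. Olig2 rose 21.4-fold, Gpr17, a receptor of committed precursors, 20.2-fold, Sox10 10.4-fold and Cspg4, the NG2 proteoglycan, 6.29-fold. Genes of mature myelin differed less. Mag rose 1.42-fold, while Myrf (0.26, adjusted p = 0.0926) and Mbp (-0.26, adjusted p = 0.127) did not pass.

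Progenitor genes were mixed, with 9 of 21 measured members (22 listed) higher and 5 lower. Those that rose included radial glia and astrocyte genes, such as Hes5, a Notch target, at 4.69-fold, Id3 at 12.4-fold and Fabp7, the brain lipid binding protein, at 3.19-fold. Pax6, a factor of cortical progenitors, fell 2.73-fold and Id4 2.29-fold. Few cell cycle genes passed, with 1 of 38 measured (40 listed) higher and 2 lower, while leaving out 1 array at a time gave 2 to 8 lower and a median of -0.50 to -0.11. Mki67, the proliferation antigen, read 10.53, 10.74 and 10.87 at E14.5 and 10.65, 10.84 and 10.82 at P2 (adjusted p = 0.887). Dividing cell transcripts were thus plainly measured at both ages. Cdk4 and Mcm7 fell 1.86-fold and 1.64-fold, and Ccnd1, cyclin D1, rose 1.99-fold.

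Microglial genes rose in 10 of 20 measured members (22 listed), and the arrays of each age were widely spread. The list mean was 9.68, 8.10 and 6.97 in the P2 arrays against 6.28, 6.23 and 7.43 at E14.5. Csf1r, the receptor microglia need to survive, read 7.80, 7.53 and 9.97 and then 12.86, 11.12 and 9.69, a 6.92-fold rise (adjusted p = 0.0140). P2 array 3 lay below E14.5 array 3, and the call was lost without P2 array 1 or E14.5 array 1 or 2. Leaving out 1 array at a time gave 2 to 16 microglial risers, and leaving out both apart arrays gave 5. Mrc1, the mannose receptor of border macrophages, rose 5.90-fold with no overlap (adjusted p = 0.00296). Trem2, Siglech and Tmem119 did not pass.

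Vascular genes rose in 9 of 17 measured members (19 listed) and 0 fell. Leaving out 1 array at a time gave 6 to 12 that rose, and in Htr3a-KO cells 4 rose and 0 fell. Slco1c1 led the vascular rises in controls at 43.5-fold. The pericyte genes Pdgfrb and Rgs5 followed at 10.3-fold (from below the filter level) and 9.13-fold, and Cldn5, the tight junction protein of brain endothelium, at 4.15-fold. Cldn5 lost its call without E14.5 array 2 or P2 array 3. Cdh5, which defines endothelium, averaged 5.11 and 5.66 and did not pass. Of 5 measured erythroid genes (13 listed), 2 fell, among them the embryonic globin Hbb-y, which read 7.56, 10.19 and 9.75 and then 5.13, 5.11 and 5.16. Of 7 measured meningeal genes (12 listed), 2 rose and 1 fell.

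Glial markers, and some vascular and microglial ones, thus rose in the same arrays as the neuronal groups that follow, and their part in those results was not tested. Several members of those groups are also expressed by glia. This is said for some of them only, so a member without such a remark is not thereby neuronal.

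Of 8 measured genes of GABA signalling and chloride balance (12 listed), 4 rose and 2 fell. Slc12a5, the chloride extruder KCC2 that makes GABA inhibitory, read 8.60, 9.11 and 8.05 at E14.5 and 10.05, 9.69 and 10.25 at P2, a 2.66-fold rise (adjusted p = 0.00103). Slc12a2, the chloride importer NKCC1 that opposes it, read 10.36 ± 0.20 and 10.60 ± 0.28 (SD, n = 3) and did not pass (0.24, SE 0.18, adjusted p = 0.314). The difference between these 2 genes was not tested. Among 10 measured GABA-A receptor subunits (14 listed), 5 rose and 0 fell, with a median of 0.95. Gabrb1 rose 9.49-fold, Gabra4 3.99-fold, Gabra5 3.75-fold and Gabrb2 2.69-fold. Gabrg1, a subunit that glia also express, rose most, from 6.14, 5.73 and 4.82 to 9.41, 10.41 and 9.90 (20.3-fold, adjusted p = 2.33e-07). Gabbr1, a GABA-B receptor subunit, rose 1.84-fold and Glrb, the glycine receptor beta subunit, 2.35-fold. Slc6a11, a GABA transporter of astrocytes, rose 2.87-fold from below the filter level.

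Glutamate receptor genes rose in 10 of 18 measured members (25 listed) and 1 fell. Grin3a, an NMDA receptor subunit of immature synapses, read 5.94, 6.13 and 5.58 and then 8.93, 8.72 and 8.92, a 7.85-fold rise (adjusted p = 4.82e-09). The arrays of each age lay close together next to the gap between the ages. Grm3, a metabotropic receptor also found in astrocytes, rose 35.2-fold, Grm7 7.67-fold and Grm5 5.18-fold. Grin2b rose 3.83-fold and Gria2, the AMPA subunit that limits calcium entry, 1.97-fold. Grik3, a kainate receptor subunit, fell 1.61-fold.

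Voltage-gated potassium channels and their partners rose in 14 of 20 measured members (27 listed) and fell in 3. Kcnip4 and Kcnip2, which modulate A-type channels, rose 7.19-fold and 4.18-fold, the former from below the filter level. Kcnc2, a fast channel of interneurons, rose 3.52-fold from 6.78, 6.35 and 6.65 to 9.01, 7.82 and 8.40 (adjusted p = 0.000776). Kcnd2, the A-type channel itself, rose 2.91-fold and Kcna2 2.21-fold, whereas Kcna1 fell 2.03-fold and lost its call without E14.5 array 3 or P2 array 2 or 3. Sodium and calcium channel genes rose in 10 of 25 measured members (28 listed) and 0 fell. With both apart arrays left out 5 rose, and in Htr3a-KO cells 6 rose and 2 fell. Scn2a, the sodium channel of developing axons, read 6.69, 7.12 and 6.99 and then 9.98, 9.33 and 10.40, a 7.84-fold rise (adjusted p = 7.66e-05). Cacna1d rose 2.70-fold and Scn3b 2.08-fold.

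Presynaptic genes rose in 14 of 26 measured members (30 listed) and 0 fell, with a median of 0.53. With both apart arrays left out 10 rose, and in Htr3a-KO cells 8 rose and 0 fell, with a median of 0.37. The control rises that follow are of single members. Unc13c, a vesicle priming factor, rose 12.6-fold from below the filter level, Stx1a, the plasma membrane SNARE, 2.68-fold, and Rims1, an active zone scaffold, 2.61-fold. Snap25 rose 1.54-fold (adjusted p = 0.0361), a call that was lost when any 1 of 5 arrays was left out, all but P2 array 2. Postsynaptic genes were more divided, with 7 of 23 measured (25 listed) higher and 3 lower. Dlg2 rose 3.76-fold, Camk2b 3.52-fold and the adhesion protein Nlgn3 2.43-fold. Cntnap2, an axonal adhesion protein, fell 2.76-fold from 11.11, 11.97 and 10.90 to 9.89, 9.85 and 9.84 (adjusted p = 0.000167), and Cntnap4 fell 1.86-fold.

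Immediate early genes, a class induced by activity and also by cell dissociation, rose in 22 of 27 measured members (28 listed), with a median of 1.35. Egr1 read 9.85, 10.73 and 10.66 and then 12.85, 13.08 and 13.09, a 6.03-fold rise (adjusted p = 1e-07). Egr2 rose 14.4-fold, Zfp36, an mRNA decay factor, 9.43-fold, Fosb 5.45-fold and Fos 4.72-fold. Npas4, which responds to calcium entry in neurons, rose 4.12-fold from 6.85, 7.61 and 5.59 to 9.16, 7.99 and 9.03. With both apart arrays left out Npas4 did not pass (adjusted p = 0.0653). Ier5 was the member that fell, 2.24-fold. How long cells stood after dissociation at each age is not given in the sources used here.

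Semaphorin signalling guides migrating interneurons and is named in the study's title. Of 29 measured semaphorin, plexin and neuropilin genes (31 listed), 4 rose and 5 fell, shares below those over all genes, and leaving out 1 array at a time gave 2 to 5 fallers. Nrp2, the co-receptor that keeps interneurons out of the striatum, read 9.72, 9.69 and 9.41 at E14.5 and 7.11, 7.50 and 7.14 at P2, a 5.12-fold fall (adjusted p = 1.05e-05). Nrp1, the other co-receptor, read 11.02, 10.74 and 11.42 and then 10.44, 9.65 and 10.37, a 1.87-fold fall (adjusted p = 0.0240). Sema3a, a ligand of Nrp1, read 8.74, 9.09 and 8.96 and then 8.56, 7.66 and 8.05, a 1.79-fold fall (adjusted p = 0.0144). The groups did not overlap for these 3 genes, but the Nrp1 call was lost without E14.5 array 1 or 3 or P2 array 2, and that of Sema3a without E14.5 or P2 array 2. Plxna4, the signalling receptor that pairs with Nrp1, read 9.61, 9.92 and 10.06 and then 9.82, 9.77 and 9.84 (-0.05, SE 0.25, adjusted p = 0.891). Plxna2 fell 1.69-fold, with its call lost without E14.5 array 3 or P2 array 2. Sema6a rose 2.66-fold and Plxnb3 2.87-fold.

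Among 20 measured ephrin and Eph genes (22 listed), 2 rose and 7 fell. With both apart arrays left out, 2 rose and 4 fell. Epha3 read 11.62, 11.77 and 11.97 and then 9.84, 8.88 and 9.61, a 5.07-fold fall (adjusted p = 1.48e-06). Efnb1, an ephrin-B ligand, fell 2.17-fold, and Efnb2 and Epha4 2.30-fold and 2.24-fold. Other guidance genes split, with 7 of 33 measured (36 listed) higher and 10 lower. Dcc, the netrin receptor, fell 3.57-fold from 10.78, 11.10 and 11.41 to 9.39, 9.57 and 8.82, and Flrt2, a ligand of Unc5 receptors, 3.08-fold. Slit1, Slit2 and Slit3, the repellents of the ventral midline, fell 1.58-fold, 1.46-fold and 1.29-fold. Met, the receptor of hepatocyte growth factor, rose 10.4-fold from 6.70, 5.94 and 6.19 to 9.72, 9.26 and 10.00 (adjusted p = 4.56e-07). Unc5c rose 2.57-fold and Bdnf 2.15-fold. Cxcr4, the chemokine receptor of the migratory stream, fell 1.57-fold (adjusted p = 0.0437), and that call was lost when any 1 of 5 arrays was left out, all but P2 array 1.

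Of 42 measured migration and cytoskeleton genes (43 listed), 7 were higher and 6 lower, shares below those over all genes. Rnd2 and Rnd3, small GTPases that act in migrating cortical neurons, fell 3.97-fold and 2.98-fold, and Cdkn1c, a cell cycle inhibitor of migrating neurons, 2.53-fold. Gap43, the growth cone protein, rose 2.03-fold, and Mapt, the microtubule protein tau, 1.95-fold. Cadherin and protocadherin genes rose in 9 of 24 measured members (27 listed) and fell in 3. Pcdh11x rose 8.55-fold and Cdh9 6.81-fold, while Cdh7 fell 2.36-fold from 7.50, 7.41 and 7.63 to 6.21, 6.45 and 6.17 (adjusted p = 1.77e-06).

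Genes of thyroid hormone supply and response rose in 7 of 10 measured members (13 listed), with a median of 1.88. Slco1c1, which carries thyroxine into the brain through endothelium and astrocytes, read 5.71, 5.21 and 5.83 and then 10.70 to 11.38 over the P2 arrays (43.5-fold, adjusted p = 1.03e-08). Dio2, the astrocyte enzyme that activates thyroxine, rose 46.9-fold from 4.87, 4.62 and 4.76 to 9.83, 10.74 and 10.33, starting below the filter level. Klf9, a hormone target gene in neurons and glia, read 7.80, 7.92 and 8.58 and then 12.19, 12.35 and 12.41, an 18.6-fold rise (adjusted p = 1.10e-08). These 3 were among the largest rises by which the leading genes were chosen. Crym, a cytosolic binder of the hormone, rose 6.65-fold and Nrgn, a hormone-responsive neuronal gene, 4.70-fold, with P2 arrays at 7.62, 8.62 and 10.01. The receptor Thra averaged 12.13 and 12.40 and did not pass (adjusted p = 0.0641).

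Developmental timing genes fell in 7 of 18 measured members (22 listed) and rose in 2. Igf2bp3, a fetal mRNA binding protein, read 10.41, 10.54 and 10.39 and then 9.37, 9.68 and 9.35, a 1.97-fold fall (adjusted p = 5.53e-05). Mllt3 fell 2.38-fold, Mycn 1.87-fold and Sox11, a factor of newborn neurons, 1.61-fold. Nfix and Zbtb20, factors of late neural development, rose 1.97-fold and 1.93-fold. Dlk1, an imprinted ligand, fell 4.83-fold, but its E14.5 arrays read 6.48 to 9.16, and array 3 was again the low one.

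Chromatin genes fell in 13 of 31 measured members (32 listed) and rose in 4. Members of the Polycomb complexes, which keep genes silent through histone H3 methylation, were among the fallers. Ezh2, the methyltransferase, read 12.14, 12.25 and 12.22 and then 11.13, 11.34 and 10.95, a 2.09-fold fall (adjusted p = 0.000121). Its partner Eed fell 2.07-fold and Cbx2, which reads the mark, 2.94-fold from 9.27, 9.10 and 9.23 to 7.57, 7.89 and 7.47 (adjusted p = 5.93e-06). The arrays of the 2 ages did not overlap for these 3 genes. Chd5, a neuronal remodeller, rose 2.53-fold and the methyltransferase Dnmt3a 1.46-fold. Actl6a, the progenitor subunit of the BAF remodelling complex, fell 1.94-fold, and Actl6b, its neuronal counterpart, fell 1.69-fold.

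Of 37 proteasome genes, 14 fell and 1 rose, with a median of -0.24, and leaving out 1 array at a time gave 7 to 16 that fell. Psmd10 fell by 0.90 (adjusted p = 7.11e-05) and Psma1 by 0.60, and the one that rose, Psmb10, is a subunit of the immunoproteasome (0.91). Of 25 splicing and RNA-binding genes 6 fell and 2 rose, a share of fallers near that over all genes, and leaving out 1 array at a time gave 2 to 5 fallers and 0 to 1 risers. Those that fell included Msi1, a progenitor protein (-0.97), and Srrm4, a neuronal splicing factor (-0.96). Cytosolic ribosomal protein genes (2 higher and 2 lower of 43) and respiratory chain subunits (1 higher and 5 lower of 78) had median differences of -0.06 and 0.04. Apoptosis genes gave 3 higher and 4 lower of 20 measured (24 listed), and Apaf1, the apoptosome scaffold, fell 1.62-fold. Interferon and MHC genes rose in 6 of 16 measured members (23 listed), and B2m rose 3.78-fold. Of 8 measured serotonin and monoamine genes (16 listed) 4 rose, among them the degrading enzymes Maob (3.05-fold, from below the filter level) and Maoa (1.83-fold).

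Cholesterol synthesis, which in the brain runs locally because plasma lipoproteins do not cross the barrier, had 14 of 19 measured members (22 listed) higher and 0 lower, with a median of 0.77, and 5 that did not pass. The list runs from the first committed steps to the last sterol reductions. Hmgcs1, which makes HMG-CoA, read 12.04, 12.22 and 12.04 at E14.5 and 13.36, 13.49 and 13.48 at P2, a 2.54-fold rise (adjusted p = 2.07e-06). Mvd, the decarboxylase of the mevalonate steps, rose 2.75-fold and Idi1, the isomerase after it, 2.46-fold. In the sterol steps, Tm7sf2, a reductase, read 7.64, 8.24 and 8.10 and then 9.77, 10.08 and 9.59, a 3.53-fold rise (adjusted p = 1.83e-06), Dhcr7 rose 2.65-fold and Hsd17b7 2.13-fold. All P2 arrays of these 6 genes lay above all E14.5 arrays. Insig1, a feedback sensor rather than an enzyme, rose 2.06-fold. Lss, Cyp51, Nsdhl, Ebp and the regulator Srebf2 did not pass, with differences of 0.34, 0.31, 0.52, -0.01 and 0.12. Astrocytes and oligodendrocyte precursors also make cholesterol, and their markers rose in the same arrays.

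**Figure D4:**
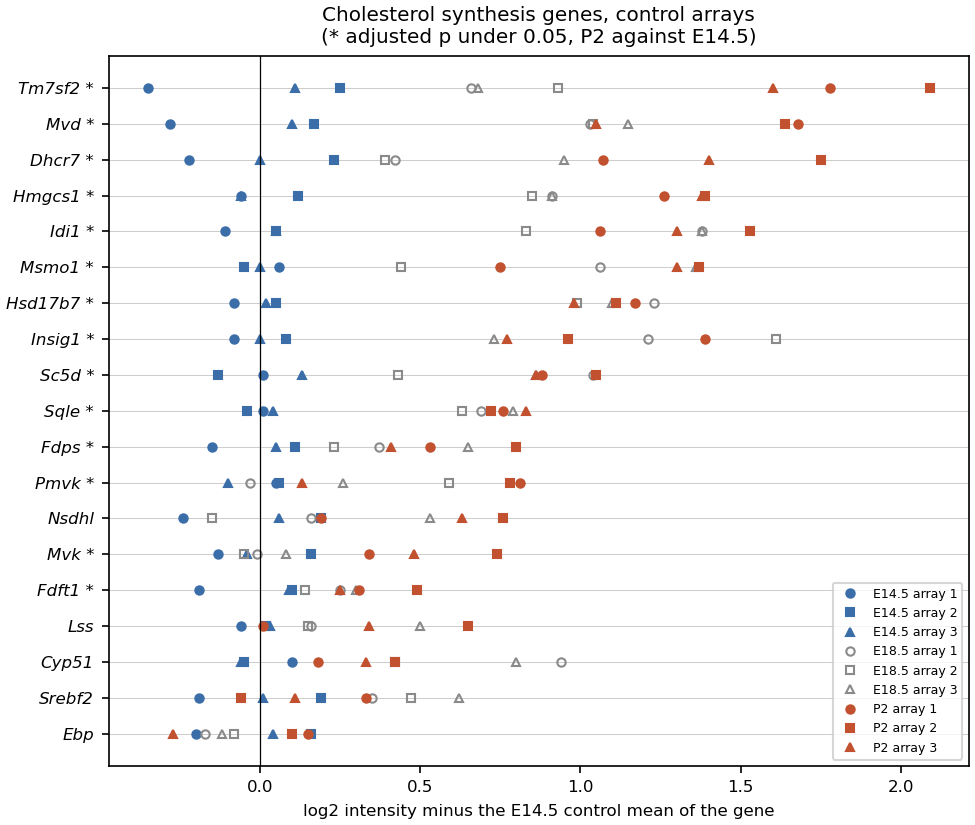
Log2 intensity of the 19 measured cholesterol synthesis genes in the control arrays, minus the E14.5 control mean of each gene; blue E14.5, open grey E18.5, red P2, 1 point per array, with a star for adjusted p under 0.05 at P2 against E14.5. The P2 points of Tm7sf2, Mvd, Dhcr7, Hmgcs1 and Idi1 lie more than 1 log2 unit to the right of 0, and their E18.5 points lie to the right of the E14.5 points.

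The promoters of 5 members are shown, those with the smallest p among passing members that have exactly 1 promoter entry. They are shown for a short motif that their rule of choice did not use. Every list member with an entry held it, including some that did not pass, so it does not set the risers apart within the list. Any part of the motif in the rises was not tested. Each run is the 250 bases before the gene's start in RefSeq on GRCm38.p6, in the direction of the gene, with the letters CCAAT, or ATTGG for the same motif on the other strand, in capitals. CCAAT is the letter core bound by the factor NF-Y. The windows lie at chr19:6067851-6068100 on the minus strand, chr13:119690101-119690350 on the plus strand, chr1:169969206-169969455 on the minus strand, chr8:122443423-122443672 on the minus strand and chr13:8885356-8885605 on the plus strand.
Tm7sf2: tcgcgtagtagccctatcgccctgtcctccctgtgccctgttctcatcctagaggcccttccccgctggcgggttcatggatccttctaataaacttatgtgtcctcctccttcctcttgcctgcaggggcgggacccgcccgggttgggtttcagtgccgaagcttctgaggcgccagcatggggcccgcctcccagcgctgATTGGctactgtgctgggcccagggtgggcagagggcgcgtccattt
Hmgcs1: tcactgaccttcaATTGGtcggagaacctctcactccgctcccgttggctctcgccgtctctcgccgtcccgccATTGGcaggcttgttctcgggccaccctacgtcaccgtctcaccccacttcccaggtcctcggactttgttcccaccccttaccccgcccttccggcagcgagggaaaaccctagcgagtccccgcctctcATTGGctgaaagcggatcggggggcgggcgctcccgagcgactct
Hsd17b7: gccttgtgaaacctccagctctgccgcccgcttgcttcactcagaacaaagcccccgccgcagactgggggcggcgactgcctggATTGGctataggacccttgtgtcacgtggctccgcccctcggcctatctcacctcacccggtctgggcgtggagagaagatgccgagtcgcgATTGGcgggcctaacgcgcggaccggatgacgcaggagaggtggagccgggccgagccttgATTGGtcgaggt
Mvd: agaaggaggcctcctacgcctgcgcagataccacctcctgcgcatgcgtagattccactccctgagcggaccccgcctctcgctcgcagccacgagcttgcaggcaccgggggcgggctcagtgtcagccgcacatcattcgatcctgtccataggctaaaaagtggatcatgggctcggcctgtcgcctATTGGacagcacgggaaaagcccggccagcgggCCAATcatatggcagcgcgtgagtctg
Idi1: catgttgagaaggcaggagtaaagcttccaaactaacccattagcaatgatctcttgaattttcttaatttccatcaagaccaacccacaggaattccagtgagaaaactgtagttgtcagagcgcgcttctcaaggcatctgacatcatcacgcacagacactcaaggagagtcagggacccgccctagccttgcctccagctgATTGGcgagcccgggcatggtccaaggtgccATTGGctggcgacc
Hmgcs1 and Hsd17b7 each held 3 copies, Mvd and Idi1 2 and Tm7sf2 1.

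Of the 19 measured members 16 had a promoter entry, and 16 of these 16 held CCAAT on either strand in the 250 bases. Over all genes tested with an entry it was 4560 of 11474 (39.7%). A gene counted as holding the motif if any of its promoter entries did. Over all entries of the 16 genes there were 31 copies, of which 17 lay 40 to 150 bases before the start, and the median distance was 57. Cell cycle genes, few of which passed over this window, held the motif in 23 of 29 promoters (79.3%), and immediate early genes, most of which rose, in 7 of 23 (30.4%). A letter match is a description of the promoter and does not show binding.

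The E18.5 control arrays divide the window into an embryonic and a perinatal step, and each step shares arrays with the net comparison. E18.5 against E14.5 called 1571 genes (11%), of which 866 rose (6.06%) and 705 fell (4.93%). P2 against E18.5 called 2818 (19.7%), of which 1424 rose (9.96%) and 1394 fell (9.75%). The difference between the steps was itself tested, and 555 genes passed (3.88%), 294 with a more positive second step (2.06%) and 261 with a more negative one (1.83%). Without E18.5 array 1 that count was 66, without E18.5 array 2 or 3 it was 278 or 329, without P2 array 2 it was 250, and without E14.5 array 2 it was 354. Aqp4 moved by 0.84 in the first step and 6.08 in the second, a difference between steps of 5.23 (adjusted p = 0.00365), but its E14.5 and E18.5 means of 3.72 and 4.56 were both below the filter level, so its first step has no reliable size. Gja1 (-0.68 and 4.06) and Pla2g7 (-0.42 and 4.09), both astrocyte genes, also differed in this direction. Crh fell by 1.95 and then rose by 3.69 (adjusted p = 0.000239), with its E18.5 mean below the filter level. Ebf1 fell by 4.90 in the first step and moved by 0.10 in the second (adjusted p = 0.0216), where both means were below that level.

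The opposite order held for Olig1, which rose by 4.99 and then by 0.99 (difference -4.00, adjusted p = 0.00107), and Klf9, with 3.33 and 0.89 (adjusted p = 0.00622). Fosb rose by 3.17 in the first step and moved by -0.73 in the second (adjusted p = 0.00585). The transporter Slc26a7 (3.00 and -1.13) and the matrix gene Ccbe1 (2.63 and -1.18) likewise had their rise in the first step. Htr3a rose by 2.29 and then fell by 1.55 (adjusted p = 0.000582), which left the small net rise given above. Nrp2 fell by 2.43 in the first step and moved by 0.07 in the second (adjusted p = 0.0110). For many genes the steps did not differ beyond their error. Grin3a rose by 1.55 and 1.42 (adjusted p of the difference = 0.831), Dio2 by 2.51 and 3.04 (adjusted p = 0.636) and Slc12a5 moved by 0.79 and 0.62, steps of which neither passed alone.

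The same window was measured in Htr3a-KO interneurons, whose arrays enter neither group mean of the control comparison but share its variance estimate and its filter on low values. There 5938 genes passed (41.5%), 2228 higher (15.6%) and 3710 lower (26.0%). Of the control calls 4362 were also called in the same direction in Htr3a-KO cells, which is 77.9% of the control calls and 73.5% of the Htr3a-KO calls. Across genes, which are not independent replicates, the net changes of both genotypes had a correlation of 0.884. The test of the difference between genotypes called 0 genes at an adjusted p under 0.05 in limma, with 900 at an unadjusted p under 0.05 (6.30%) and a smallest adjusted p of 0.549. The median SE of that difference was 0.21 against 0.15 for the control change.

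Several members with large control changes had like values in Htr3a-KO cells. Aqp4 changed by 7.30 in Htr3a-KO cells, Olig1 by 5.61, Pdgfra by 5.72, Dio2 by 5.57, Grin3a by 3.01, Nrp2 by -2.58 and Hmgcs1 by 1.25. The cholesterol list had 17 of 19 members higher there, the astrocyte genes described above rose, and Eomes fell by 6.06. Sema3a and Nrp1 fell by 1.32 and 1.44. In the striatal list 10 of 18 genes fell in Htr3a-KO cells too, with a median of -0.93 against -1.23 in controls. Single members were further apart, with Isl1 at -4.00, Zfp503 at -1.80 and Rarb at -0.36 against -6.12, -3.59 and -2.83 in controls. The differences between genotypes did not pass (adjusted p = 0.803, 0.803 and 0.765 for Isl1, Zfp503 and Rarb).

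Crym rose by 2.73 in controls and moved by 0.58 in Htr3a-KO cells, which did not pass there. Some CGE and MGE genes had unlike values in the 2 genotypes, though no difference passed. Reln rose by 1.06 in controls and moved by -0.11 in Htr3a-KO cells, whose E14.5 arrays already read 12.57, 12.52 and 12.17 (difference -1.17, adjusted p = 0.760). Npy gave 0.99 and 0.06. Lhx6 moved by -0.64 in controls and fell by 2.43 in Htr3a-KO cells (difference -1.79, SE 0.47, adjusted p = 0.672). The smallest p of the difference belonged to Mmp2, Col19a1, Pf4, Pop1, Pik3cg, F13a1, Rhobtb1 and H2-Aa, all at an adjusted p of 0.549. Col19a1, a collagen of interneurons, rose by 1.94 in controls and by 0.63 in Htr3a-KO cells.

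Macrophage genes gave the calls of opposite direction. F13a1 and Pf4, genes of border macrophages, were the 2 genes called in both genotypes in opposite directions, with F13a1 at 2.31 and -1.97 and Pf4 at 1.72 and -1.25. Pf4 read 6.89, 7.02 and 7.22 at E14.5 and 9.50, 9.14 and 7.64 at P2 in controls. In Htr3a-KO cells it read 7.94, 8.10 and 8.25 and then 6.14, 7.19 and 7.20. In Htr3a-KO arrays the microglia list averaged 8.98, 7.73 and 7.03 at E14.5 and 6.78, 7.30 and 6.70 at P2, and 0 of its 20 genes rose and 1 fell. The list thus ran from 6.97 to 9.68 over the P2 control arrays and from 7.03 to 8.98 over the E14.5 Htr3a-KO arrays, with array 1 the highest in both groups.

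**Figure D5:**
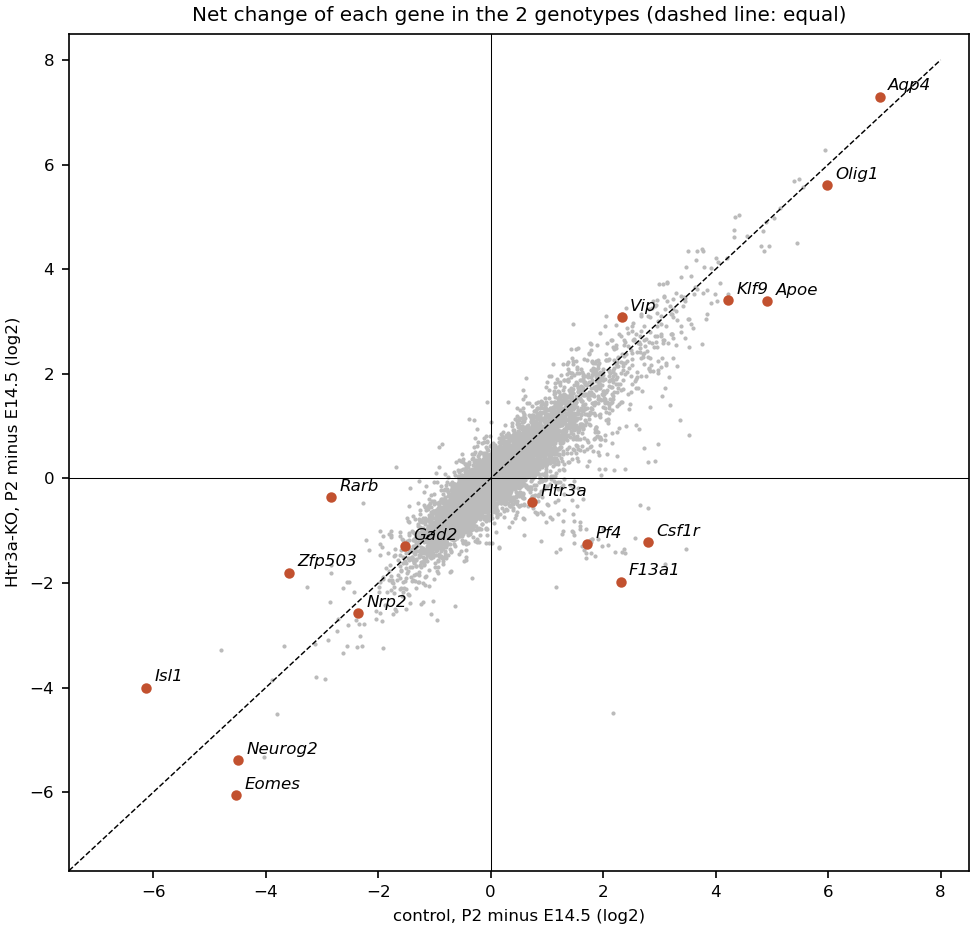
Net change of each of 14292 genes from E14.5 to P2 in controls (horizontal, log2) against that in Htr3a-KO cells (vertical, log2), with named genes in red and a dashed line for equal changes. Most genes lie along the line, while F13a1, Pf4 and Csf1r lie at lower right, with a rise in controls and a negative difference in Htr3a-KO cells.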

How the data were processed

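Expression was measured on Affymetrix Mouse Genome 430 2.0 arrays. The deposited values are log2 intensities that the authors made with RMA in Partek, per the submitters' processing notes and the design text, and they were used as deposited. Probe sets were named through the platform annotation, those with 1 gene were kept, and the probe set with the highest mean represented its gene. The lowest 30% of probe sets by mean over all arrays (log2 level 5.255) were left out, which gave 14292 genes. limma 3.58.1 in R 4.3.3 was fitted to all 18 arrays with 6 group means (12 residual degrees of freedom), and differences were tested with Benjamini-Hochberg adjustment over all genes at 0.05. Named genes were the 12 largest non-overlapping rises and falls, at any level and above the filter level, up to 4 members of each list with the smallest p, other list members as values, and the leading genes of the genotype and step differences. The members and lists were chosen with earlier results of these data known. Replicates are litters, and precision is limited by having 3 of them in a group. Alternatives covered filtering, normalization, probe set choice, array weights, the variance model, thresholds, the replicate number and each array left out. Promoters came from RefSeq (GRCm38.p6), and the build of the array annotation is not given in the sources used here.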

Additional observations from a re-analysis of the deposited data

How the results depend on the processing

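Of 177 genes named by rule, 173 passed, and 148 of these kept their call in every refit that tested them. No gene named by rule changed direction in a refit if it passed there or in the main fit. Changes of direction in genes that passed in neither were not counted. For P2 against E14.5 in controls, testing every probe set gave 9324 calls (3891 higher and 5433 lower), and asking for a change of at least 1.5-fold gave 3547 (1623 lower). In Htr3a-KO cells these settings gave 9710 and 3683. Median centring gave 2231 higher and 3594 lower, so that 38.3% of calls were higher against 46.0%, with a median over all genes of -0.11. For E18.5 against E14.5, array weights gave 3166, every probe set 2359 and a false discovery rate of 0.10 gave 2391. For P2 against E18.5, fitting only the arrays compared gave 1665, every probe set 4683 and 1.5-fold 1694. For the step difference, array weights gave 1796, only the arrays compared 214 and the rate of 0.10 gave 983. The cause of these shifts was not tested.

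Leaving out 1 array at a time gave 4659 to 5104 calls in controls (2100 to 2460 higher and 2258 to 2876 lower), 5043 to 5456 in Htr3a-KO cells, 916 to 1417 for E18.5 against E14.5, 1823 to 2901 for P2 against E18.5 and 66 to 812 for the step difference. The genotype difference ranged from 0 to 12, with 12 without E14.5 control array 3. Leaving out both apart arrays, an alternative chosen after seeing the data, gave 7. E18.5 against E14.5 gave 916 without E14.5 control array 1, and P2 against E18.5 gave 1823 and the step difference 66 without E18.5 control array 1.

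With the replicate number as a block, 2499 genes were higher and 2899 lower, and no gene named by rule changed its call. Deviations of same-numbered E14.5 and P2 control arrays correlated at -0.091, -0.018 and -0.159, so the numbers showed no pairing between these groups. Pairs with other groups are not given here. Gene lists were not run with every probe set. Low intensities near the filter level limit the folds that start or end there.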
